A study of Homo sapiens with 16 samples.

Results

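The genes described here are 9 components of the plasminogen activator and matrix protease systems: the plasminogen activators PLAU and PLAT, the receptor PLAUR, the inhibitor SERPINE2, the matrix metalloproteases MMP7 and MMP10, the metalloproteases ADAMTS1 and ADAMTS9, and the metalloprotease inhibitor TIMP1. They were taken by symbol from the count table, where all 9 were present among 59428 genes. The 16 libraries came from OVCAR3, a serous ovarian carcinoma cell line with intact BRCA1, and UWB1.289, a serous ovarian carcinoma line with a deleterious BRCA1 mutation. Each line was kept for 96 h either with olaparib, an inhibitor of the PARP enzymes of DNA strand break repair, dissolved in DMSO, or with DMSO alone as the vehicle control, in 4 replicates a group. The olaparib dose was 7.5 µM for OVCAR3 and 3.5 µM for UWB1.289. The media differed as well, so a comparison between the lines cannot tell apart cell line, status of BRCA1, dose and medium. Each genotype is represented by 1 established line. The labels do not say whether replicates were separate cultures, so p-values measure the spread between these samples, which may be technical.

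Urokinase (PLAU) and tissue-type plasminogen activator (PLAT) are serine proteases that cut plasminogen into plasmin, a broad protease that degrades fibrin and matrix proteins and activates some latent metalloproteases. Urokinase works at the cell surface when bound to its receptor, which PLAUR encodes. SERPINE2 (protease nexin-1) inhibits thrombin, plasmin and both activators. Matrilysin (MMP7) and stromelysin-2 (MMP10) are secreted metalloproteases, ADAMTS1 and ADAMTS9 cut the proteoglycans versican and aggrecan, and TIMP1 binds and blocks active metalloproteases. In carcinomas the urokinase system has long been studied for its part in invasion. These libraries measure only the mRNA of the genes, not the proteins or their activity.

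The libraries held between 5599571 and 7730228 counts. All 10 epithelial carcinoma markers examined exceeded 3 counts in some library of both OVCAR3 groups and 9 did so in both UWB1.289 groups, WT1 being at 0 in UWB1.289 with DMSO. Their summed normalized level lay between 31809 and 33688 in OVCAR3 with DMSO, between 19988 and 22352 in OVCAR3 with olaparib, between 52679 and 56422 in UWB1.289 with DMSO and between 41925 and 51148 in UWB1.289 with olaparib. Keratins carried much of these sums, KRT18 alone with a mean of 8838 normalized counts in OVCAR3 and 23484 in UWB1.289. With olaparib in OVCAR3, KRT18 (log2 fold change -1.02) and KRT8 (-1.05) passed the test defined below, against 2.33% of all genes lower. The median of the 10 was -0.39. With DMSO 2 of the 10 were higher in UWB1.289 and 3 lower, against 18.7% and 19.7% of all genes. The sums therefore do not stand for each marker. Summed markers of fibroblasts, leukocytes and endothelium reached at most 477, 145 and 74.5. In OVCAR3 with DMSO 2 of 9, 2 of 9 and 2 of 6 of them exceeded 3 counts in some library. In UWB1.289 with olaparib 4 of 9, 5 of 9 and 5 of 6 did so. The fibroblast genes COL3A1 and LUM were at 0 in all 4 groups. Over both treatments, COL1A1 had a mean of 200 normalized counts in OVCAR3. In UWB1.289 the means were 229 for COL1A2, 74.6 for THY1, 44.7 for PTPRC (leukocytes) and 25.6 for PECAM1 (endothelium). Leukocyte markers summed to between 55.6 and 79.2 in UWB1.289 with DMSO and to between 108 and 145 with olaparib, and the part of these marker differences in the results was not tested. OVCAR3 olaparib replicate 4 stood apart: among 10533 genes with a mean above 30 normalized counts, 122 lay more than 2-fold below every other library of its group there, against 0 to 29 genes in the other 15 libraries.

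**Figure D1:**
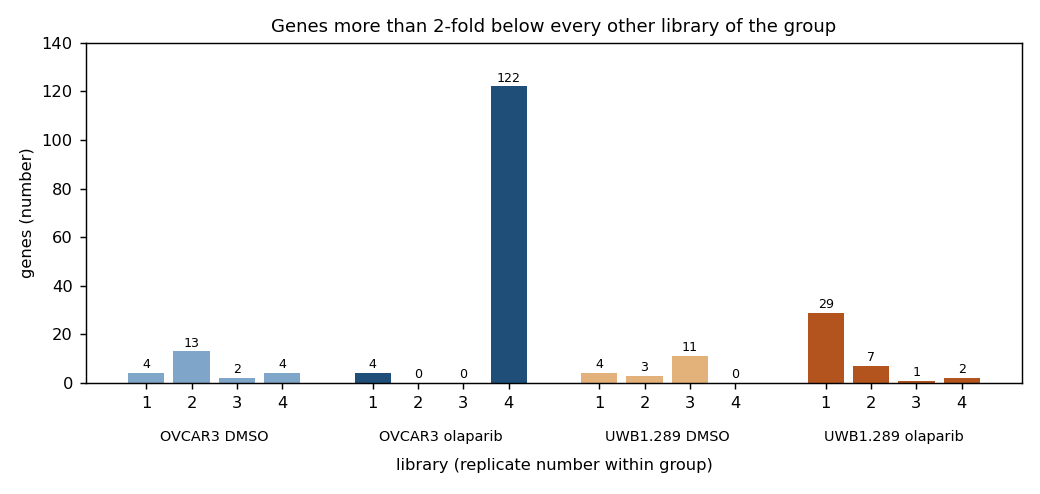
Number of genes (vertical axis) that lay more than 2-fold below all other libraries of their group, for each of the 16 libraries (horizontal axis, replicate number within group). The bar of OVCAR3 olaparib replicate 4 stands at 122 and the next highest bar, UWB1.289 olaparib replicate 1, at 29.

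In OVCAR3, 6 of the 8 genes that could be tested rose with olaparib, and the fitted changes of all 8 were positive. Both activators, the urokinase receptor, SERPINE2, ADAMTS9 and TIMP1 were higher, by between 1.02 for TIMP1 and 3.08 for ADAMTS9 on the log2 scale. "Rose" and "fell" are used for an adjusted p below 0.1 with edgeR's quasi-likelihood test, a change beyond 2-fold and a mean above 10 normalized counts. By that rule 5.23% of the 13031 genes tested changed in OVCAR3, 2.9% of them upwards. The median log2 fold change of the 8 genes was 1.88, against -0.01 over all genes tested. By adjusted p alone 7 of the 8 were higher, against 15.5% of all genes. In 6 of the 8 the olaparib libraries lay above every DMSO library, which held for 12.4% of all genes. These genes were chosen with earlier results of these data known. Their shares and median set beside all genes, here and below, therefore cannot test whether they respond more often than other genes.

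In UWB1.289 the same drug raised 1 of the 7 testable genes beyond 2-fold, ADAMTS9, where 2.21% of 12748 genes changed and 1.93% rose. PLAUR, PLAT, SERPINE2 and ADAMTS1 passed the adjusted p threshold as well, with changes below 2-fold, so that 5 of 7 were higher by p alone, against 7.77% of all genes. With the replicate number as a block PLAU passed by p as well, making 6 of 7. Their median log2 fold change was 0.71, against -0.00436 over all genes. Olaparib and DMSO libraries did not overlap in 4 of the 7, against 7.7% of all genes in that direction. Because of how the genes were chosen, these shares and the median are descriptions without a test. In bulk libraries a change in the share of cells that express a gene and a change in RNA per cell cannot be told apart.

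**Figure D2:**
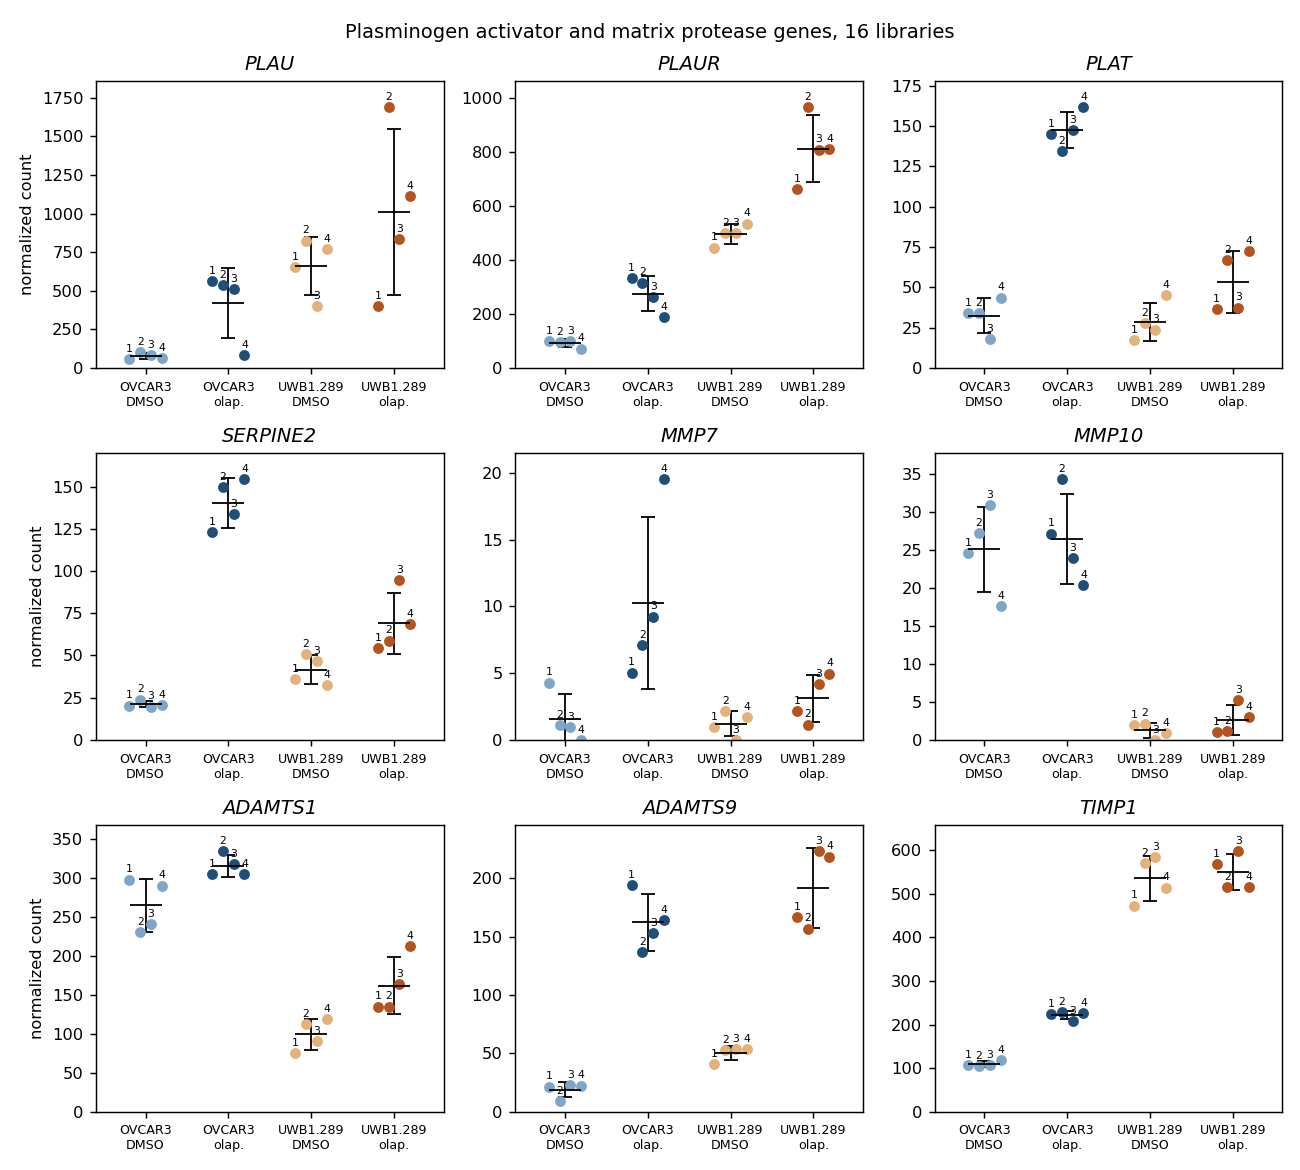
Normalized counts (vertical axes, each starting at 0) of the 9 genes in the 16 libraries by group, with each replicate number beside its point. Horizontal bars are group means and error bars are SD of 4 replicates. SERPINE2, PLAT and ADAMTS9 separate cleanly in OVCAR3, while the PLAU point of OVCAR3 olaparib replicate 4 lies at 83.5, within the DMSO range.

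PLAU encodes urokinase and lies at chr10:73909177-73917496 on the plus strand (hg38). Counts are given scaled to the mean library size after TMM normalization and are called normalized counts. With DMSO the OVCAR3 replicates 1 to 4 held 56.8, 102, 85.4 and 63.2 normalized counts of PLAU. With olaparib they held 564, 536, 509 and 83.5. The first 3 olaparib libraries stood far above all DMSO libraries and the fourth lay among them, so the groups overlapped. The means were 76.9 ± 20.8 and 423 ± 228 (SD, n = 4 each), and PLAU rose by a log2 fold change of 2.46 (SE 0.372, adjusted p = 5.47e-05 with edgeR). Without OVCAR3 olaparib replicate 4 the rise was 2.81 (adjusted p = 5.61e-19).

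The low value of PLAU in that library was among the widest gaps there. The log2 difference between replicate 4 and the next lowest olaparib library was -2.58 for PLAU, and only THOC3 (-4.02) and MRPL39 (-2.80) had a wider gap. Of the 378 genes that rose in OVCAR3, 12 had replicate 4 as the only olaparib library within the DMSO range, against 3 to 6 genes for each of the other 3 libraries. PLAUR was also lowest in replicate 4, whereas PLAT, SERPINE2 and MMP7 were highest there. The coefficient of variation of PLAU was 53.8% in OVCAR3 with olaparib and 53.3% in UWB1.289 with olaparib. Among genes with a mean above 100 normalized counts the median was 9.77% and 10.5% in these groups, and 6 and 11 genes varied more than PLAU.

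In UWB1.289 PLAU was already high with DMSO, at 652, 825, 400.5 and 771 normalized counts in replicates 1 to 4. With olaparib the values were 403, 1688, 836 and 1114. Olaparib replicate 1 fell at the low end of the DMSO range and replicate 2 was the highest of all, and the groups overlapped. The means of 662 ± 189 and 1010.5 ± 538 (SD, n = 4 each) gave a log2 fold change of 0.61 (SE 0.260, adjusted p = 0.155 with edgeR), which did not pass the test. With the replicate number as a block it was 0.51 (adjusted p = 0.0463 with edgeR), still below 2-fold. The ratio of olaparib to DMSO within a replicate number was 0.619, 2.05, 2.09 and 1.44, so 3 of 4 pairs were higher and 1 was lower. Leaving out olaparib replicate 2 lowered the log2 fold change to 0.25, and leaving out olaparib replicate 1 raised it to 0.87.

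PLAT, the tissue-type activator (chr8:42174718-42207709, minus strand), rose in OVCAR3 without the overlap seen for PLAU. Its DMSO libraries held 34.3, 34.0, 17.8 and 43.7 normalized counts, and its olaparib libraries 145, 135, 148 and 162. Every olaparib library was above every DMSO library, with replicate 4 the highest. Mean levels of 32.5 ± 10.7 and 147 ± 11.2 (SD, n = 4 each) corresponded to a log2 fold change of 2.18 (SE 0.195, adjusted p = 7.54e-08 with edgeR).

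In UWB1.289 PLAT started at a similar count, with 17.6, 28.1, 23.8 and 45.4 normalized counts for DMSO and 36.4, 66.9, 37.4 and 72.5 for olaparib. The highest DMSO library, replicate 4, exceeded olaparib replicates 1 and 3, so the groups overlapped, although the olaparib library was higher within all 4 replicate numbers. The log2 fold change was 0.88 (SE 0.287, adjusted p = 0.0582 with edgeR), below 2-fold. It exceeded 2-fold when 1 of 3 libraries was left out: DMSO replicate 4 (1.20), olaparib replicate 1 (1.02) or olaparib replicate 3 (1.01).

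PLAUR encodes the GPI-anchored urokinase receptor, which holds urokinase at the membrane (chr19:43646095-43670547, minus strand). Its OVCAR3 DMSO libraries held 100.7, 97.6, 100.4 and 72.5 normalized counts and its olaparib libraries 332, 317, 264 and 188. No olaparib library came near the DMSO range, and replicate 4 was the lowest of both groups. PLAUR rose by 1.57 (SE 0.164, adjusted p = 6.65e-07 with edgeR), or by 1.72 without olaparib replicate 4.

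The UWB1.289 libraries held 447, 501, 501 and 535 normalized counts of PLAUR with DMSO and 664, 966, 809 and 811 with olaparib. These groups were also fully apart, and the ratio within replicate numbers ran from 1.49 to 1.93. The log2 fold change was 0.71 (SE 0.103, adjusted p = 5.09e-05 with edgeR), a change that passed the p threshold but not the 2-fold limit.

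SERPINE2, the inhibitor among the 9 that acts on the activators themselves, rose in OVCAR3 with little scatter between libraries. It lies at chr2:223975045-224039318 on the minus strand. The DMSO libraries held 20.4, 23.8, 19.7 and 20.4 normalized counts, and the olaparib libraries 123, 149.7, 134 and 155. All olaparib values stood well above all DMSO values, replicate 4 included. The log2 fold change was 2.74 (SE 0.173, adjusted p = 5.78e-10 with edgeR).

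In UWB1.289 SERPINE2 held 36.2, 50.8, 46.6 and 32.5 normalized counts with DMSO and 54.6, 58.8, 94.6 and 68.5 with olaparib. The groups did not overlap, but the lowest olaparib value lay close to the highest DMSO value. The change of 0.75 (SE 0.216, adjusted p = 0.0299 with edgeR) stayed below 2-fold.

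MMP7 (chr11:102520508-102530750, minus strand) was barely detected and fell under the filter on low counts in every fit. Its raw counts in OVCAR3 were 4, 1, 1 and 0 with DMSO and 5, 7, 10 and 22 with olaparib, 6 against 44 in all. The olaparib libraries were all above the DMSO libraries, by a single count at the closest, and 22 of the 44 counts came from replicate 4. With no filter on low counts the log2 fold change was 2.67 (SE 0.693, adjusted p = 0.00184 with edgeR). An exact two-sided permutation test, run for MMP7 alone, gave an unadjusted p = 0.0286, the smallest that 4 against 4 libraries allow. That p only restates that the groups did not overlap, which held upwards for 12.4% of all genes tested in OVCAR3. The mean of 6.04 normalized counts was under the limit of 10, so MMP7 was not counted among the genes that rose. In UWB1.289 MMP7 had 5 counts in 4 DMSO libraries and 12 in 4 olaparib libraries, and a difference was not detectable at this depth (0.143 by the exact permutation test).

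MMP10 (chr11:102770502-102780628, minus strand), the other metalloprotease, did not follow. In OVCAR3 its DMSO libraries held 24.6, 27.2, 31.0 and 17.7 normalized counts and its olaparib libraries 27.2, 34.4, 24.0 and 20.4. The ranges covered each other almost entirely, and the log2 fold change was 0.08 (SE 0.272, adjusted p = 0.875 with edgeR). In UWB1.289 it had raw counts of 2, 2, 0 and 1 with DMSO and 1, 1, 5 and 3 with olaparib, too few to be tested.

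The promoter windows of these genes were searched on both strands for 4 motifs. A window is the 250 bases before a start in the RefSeq annotation of GRCh38.p14. The table held windows for 6 of the 9 genes, and PLAT, ADAMTS1 and ADAMTS9 had no entry. The RefSeq windows of PLAU, PLAUR and SERPINE2 lie inside the GENCODE bounds given for these genes, not before them. Only the window of MMP10 and 1 of SERPINE2 overlap no annotated exon. The AP-1 motif TGANTCA occurred in the windows of PLAUR, MMP7 and MMP10 and in 6.57% of all 35116 windows. Stretches of 27 bases around it are shown 5′ to 3′ on the gene's strand with the motif in capitals. PLAUR and MMP7 hold the form TGAGTCA and MMP10 the form TGAATCA. Whether the motif bears on the changes with olaparib was not tested. The stretches of PLAUR, MMP7 and MMP10 lie at chr19:43670339-43670365, chr11:102530798-102530824 and chr11:102780679-102780705, all on the minus strand. The motif's first base lies 186, 67 and 67 bases before the RefSeq start.
PLAUR: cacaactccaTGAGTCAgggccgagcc
MMP7: aacactcaaaTGAGTCAcctatttcca
MMP10: aacacatgcaTGAATCAtactgttggt

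The 2 windows of PLAU, the 2 of SERPINE2 and the 1 of TIMP1 did not hold the letters TGANTCA. Other forms of the AP-1 motif were not searched for, so this does not show that they are absent. The TATA motif TATAAA was found in MMP7 and MMP10, 30 and 31 bases before the start, and in 10.7% of all windows. An ETS-type motif, AGGAAG, was present in the windows of PLAU, PLAUR, MMP7 and TIMP1 and in 28.7% of all windows. The form of the NF-kB motif that was searched for occurred in no window of the 6 genes and in 1.73% of all windows. Other forms of the NF-kB motif were not searched for, so this does not show that they are absent. These matches describe the sequence, and no binding was measured.

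ADAMTS9 was the gene of the 9 that rose in both lines. It encodes a proteoglycan-cleaving protease and lies at chr3:64515654-64688000 on the minus strand. The OVCAR3 DMSO libraries held 21.4, 9.08, 22.5 and 22.3 normalized counts, with replicate 2 the lowest, and the olaparib libraries 194, 137, 153 and 164. The groups were far apart and the log2 fold change was 3.08 (SE 0.209, adjusted p = 1.57e-09 with edgeR), or 2.87 without DMSO replicate 2. In UWB1.289 the values were 41.0, 53.0, 53.8 and 53.9 with DMSO and 167, 157, 224 and 218 with olaparib. Again no library crossed into the other group, and ADAMTS9 rose by 1.93 (SE 0.158, adjusted p = 8.47e-09 with edgeR).

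ADAMTS1, a related protease (chr21:26835755-26845409, minus strand), changed by less than 2-fold in both lines. Its OVCAR3 DMSO libraries held 298, 230.4, 240.2 and 289.98 normalized counts and its olaparib libraries 305, 335, 317 and 305. The groups came close without overlapping, with a log2 fold change of 0.26 (SE 0.105, adjusted p = 0.0824 with edgeR). In UWB1.289 the libraries held 75.2, 112, 91.1 and 119 normalized counts with DMSO and 135, 135, 163 and 213 with olaparib. The olaparib libraries were all higher there, by 0.70 (SE 0.166, adjusted p = 0.00811 with edgeR), which is below 2-fold.

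TIMP1, the metalloprotease inhibitor (chrX:47582408-47586789, plus strand), rose in OVCAR3 just past the 2-fold limit. The DMSO libraries held 107, 104, 107 and 119 normalized counts and the olaparib libraries 225, 229, 208 and 226. Both groups were tight and well apart, with a log2 fold change of 1.02 (SE 0.114, adjusted p = 1.60e-06 with edgeR). Without DMSO replicate 2 it was 0.997, under the limit. In UWB1.289 TIMP1 was high from the start, at 473, 571, 584 and 514 normalized counts with DMSO and 568, 515, 599 and 515 with olaparib. Those ranges overlapped throughout, and the log2 fold change was 0.04 (SE 0.0936, adjusted p = 0.847 with edgeR).

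OVCAR3 olaparib replicate 4 decided none of the calls in that line. Without it the same 6 genes passed the test, with log2 fold changes of 2.81 for PLAU, 1.72 for PLAUR, 2.14 for PLAT, 2.69 for SERPINE2, 3.07 for ADAMTS9 and 1.01 for TIMP1. The adjusted p of ADAMTS1 was 0.0530 and that of MMP10 0.698 with edgeR in this fit.

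**Figure D3:**
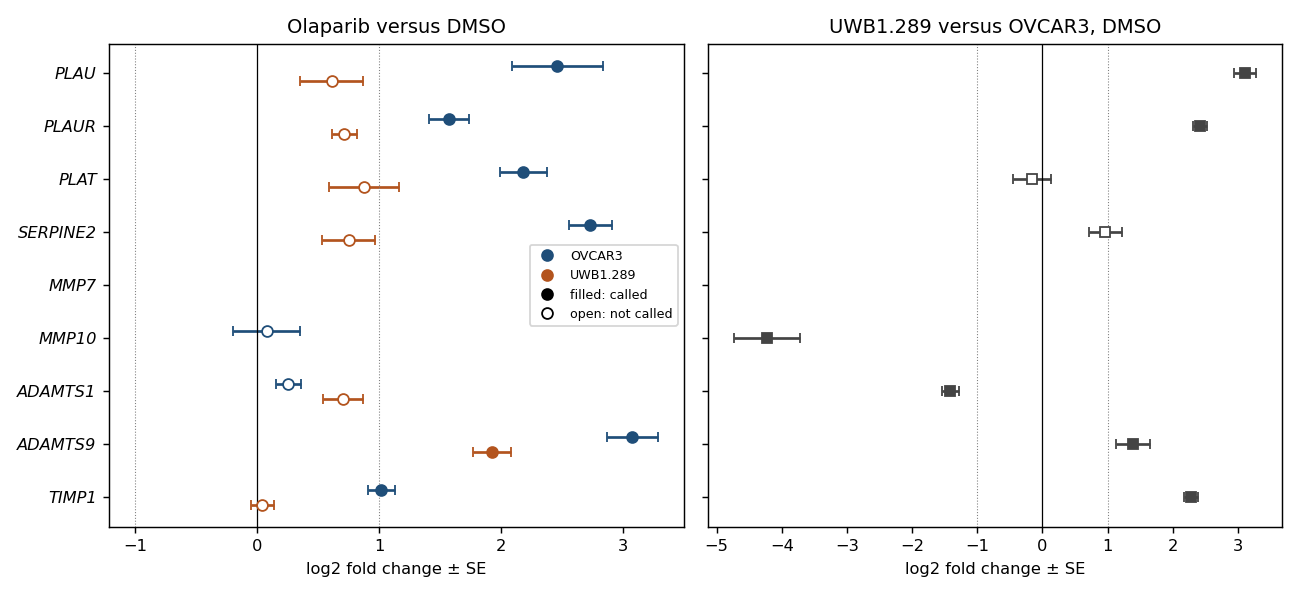
Log2 fold changes with standard errors (horizontal axes) of the genes tested. The left panel shows olaparib against DMSO in OVCAR3 (blue) and UWB1.289 (orange), and the right panel UWB1.289 against OVCAR3 with DMSO. Filled symbols passed the test, open symbols did not, dotted lines mark a 2-fold change, and a gene without a symbol was not tested. The MMP10 value on the right was fitted against a group at the floor of 3 counts. The OVCAR3 symbol lies to the right of the UWB1.289 symbol for 6 genes, and only ADAMTS9 is filled in both lines.

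The comparison of the lines without drug asks how far the starting levels differed. With DMSO, PLAU, PLAUR, TIMP1 and ADAMTS9 were higher in UWB1.289 and MMP10 and ADAMTS1 were lower, 6 of 8 genes tested, where 38.4% of 13366 genes differed between the lines, 18.7% higher and 19.7% lower. PLAU was higher by 3.11 (SE 0.174, adjusted p = 4.12e-16 with edgeR), PLAUR by 2.42 (SE 0.112), TIMP1 by 2.28 (SE 0.104) and ADAMTS9 by 1.39 (SE 0.261) on the log2 scale. The DMSO libraries of the lines did not overlap for these 4, for SERPINE2 or for the 2 lower genes, which held for 34.5% of all genes upwards and 34.9% downwards. With genes chosen on earlier results, the shares of all genes are given as description only.

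MMP10 had 99 counts over the 4 OVCAR3 DMSO libraries and 5 over those of UWB1.289, where it was at the floor of 3 counts a library. It was therefore at least 8.48-fold lower in UWB1.289 (adjusted p = 1.19e-08 with edgeR). ADAMTS1 was lower by a log2 fold change of -1.41 (SE 0.136, adjusted p = 1.21e-10 with edgeR). SERPINE2 was higher in UWB1.289 by 0.97 (SE 0.254, adjusted p = 0.00111 with edgeR), just below 2-fold. It passed 2-fold without UWB1.289 DMSO replicate 1 (1.04), UWB1.289 DMSO replicate 4 (1.09) or OVCAR3 DMSO replicate 2 (1.02). PLAT gave -0.16 (SE 0.295, adjusted p = 0.628 with edgeR), with ranges that covered each other.

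For 3 of the genes that rose in OVCAR3, the level reached with olaparib stayed below that of UWB1.289 with DMSO or only met it. The olaparib libraries of OVCAR3 lay between 83.5 and 564 for PLAU, between 188 and 332 for PLAUR and between 208 and 229 for TIMP1. The DMSO libraries of UWB1.289 lay between 400.5 and 825, between 447 and 535 and between 473 and 584. For PLAUR and TIMP1 these ranges did not meet, and for PLAU they overlapped. For PLAT, SERPINE2 and ADAMTS9 the order was the opposite, since every OVCAR3 library with olaparib exceeded every UWB1.289 library with DMSO. These levels come from different media and doses and were not tested against each other.

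Whether the olaparib effect itself differed between the lines was tested as an interaction over all 16 libraries. The effect was smaller in UWB1.289 for SERPINE2, PLAU, PLAT and ADAMTS9, 4 of 8 genes tested, where 3.66% of 14243 genes passed and 1.66% were in this direction. The difference of the log2 fold changes, UWB1.289 minus OVCAR3, was -1.98 for SERPINE2 (SE 0.283, adjusted p = 1.74e-05 with edgeR) and -1.15 for ADAMTS9 (SE 0.279, adjusted p = 0.00822 with edgeR). It was -1.85 for PLAU (SE 0.531, adjusted p = 0.0284 with edgeR), a call that DESeq2 did not make (adjusted p = 0.102). PLAT gave -1.31 (SE 0.370, adjusted p = 0.0257 with edgeR).

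TIMP1 with -0.98 (adjusted p = 1.52e-05 with edgeR) and PLAUR with -0.86 (adjusted p = 0.00606) passed by p and not by fold, so 6 of 8 genes were lower by p alone, against 5.83% of all genes. Here too the genes were chosen with earlier results known, so the shares do not test them against other genes. ADAMTS1 with 0.45 (adjusted p = 0.195) and MMP10 with 0.96 (adjusted p = 0.555) did not pass. Some of these calls rested on single libraries. PLAT was no longer called without UWB1.289 DMSO replicate 4 (-0.98, adjusted p = 0.133 with edgeR), and ADAMTS9 without OVCAR3 DMSO replicate 2 (-0.94). TIMP1 passed the fold limit without UWB1.289 DMSO replicate 1 (-1.03), UWB1.289 olaparib replicate 3 (-1.02), OVCAR3 DMSO replicate 4 (-1.04) or OVCAR3 olaparib replicate 3 (-1.01). PLAUR did so without OVCAR3 olaparib replicate 4 (-1.01), and PLAU then gave -2.20 (adjusted p = 5.90e-05 with edgeR).

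The wider protease and inhibitor families were listed to set the 9 genes beside their relatives. Of 94 further genes in 7 lists, 8 had no count in any library. In OVCAR3, 50 of them could be tested with a median log2 fold change of 0.06, and 1 rose and 4 fell, against 2.9% and 2.33% of all genes. In UWB1.289, 49 were tested with a median of 0.08, and 2 rose and 0 fell with edgeR, against 1.93% and 0.282% of all genes. At an unadjusted p below 0.05 15 of the 50 were higher and 8 lower in OVCAR3, and 11 of the 49 higher and 5 lower in UWB1.289. DESeq2 called 1 higher and 3 lower in OVCAR3 and 2 higher and 0 lower in UWB1.289. The share of all genes at an unadjusted p below 0.05 was not determined. Counts at that threshold, here and below, therefore have no background to be read against. The lists were also chosen with earlier results known, so setting them beside all genes is a description without a test.

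**Figure D4:**
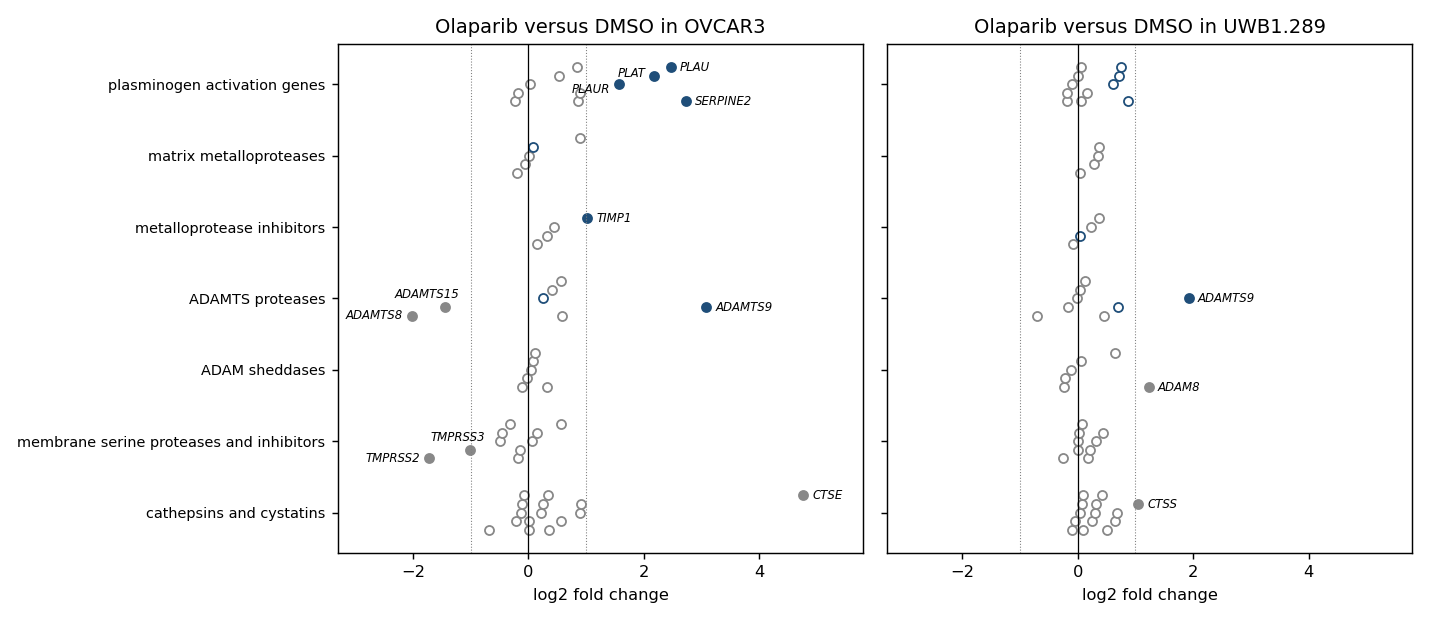
Log2 fold change with olaparib (horizontal axes) of every tested gene of 7 protease and inhibitor lists (rows) in OVCAR3 (left) and UWB1.289 (right), the 9 genes of the report in blue and others in grey. Filled points passed the test and carry their symbols, dotted lines mark 2-fold, and the CTSE value was fitted against a group at the floor of 3 counts. In OVCAR3 the filled points of the plasminogen activation list are PLAU, PLAUR, PLAT and SERPINE2, and in UWB1.289 that list has no filled point.

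The plasminogen activation list of 18 genes includes PLAU, PLAUR, PLAT and SERPINE2. In OVCAR3 11 were tested and only these 4 rose, so the list repeats results given above. Of all genes 2.9% rose there. In UWB1.289 11 were tested and 0 rose with edgeR or DESeq2, against 1.93% of all genes with edgeR. At an unadjusted p below 0.05 8 were higher and 0 lower in OVCAR3, and 4 higher and 1 lower in UWB1.289. By edgeR's adjusted p alone 8 were higher in OVCAR3, the 4 genes above included, and 3 in UWB1.289. Of all genes 15.5% and 7.77% were higher by that measure, and 0 of the list were lower in either line. The list's median log2 fold change, those 4 genes included, was 0.85 in OVCAR3 and 0.07 in UWB1.289. TFPI2, a serine protease inhibitor of the same list, gave 0.85 (adjusted p = 9.93e-05 with edgeR) in OVCAR3 and -0.19 (adjusted p = 0.222) in UWB1.289. The difference of these effects was -1.04 (adjusted p = 3.28e-05 with edgeR). LRP1, an endocytic receptor that clears protease-inhibitor complexes, gave -0.18 (adjusted p = 0.589 with edgeR) in OVCAR3 and was not tested within UWB1.289. Its difference of effects was 1.35 (adjusted p = 0.0864 with edgeR). The TFPI2 call was lost without UWB1.289 DMSO replicate 1 (-0.94), OVCAR3 DMSO replicate 4 (-0.98) or OVCAR3 olaparib replicate 2 (-0.98). LRP1 had 17 and 36 counts over the UWB1.289 groups, and its call held in 5 of 16 fits with 1 library left out (1.06 to 1.55) and not with DESeq2 (adjusted p = 0.108).

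Of 23 matrix metalloproteases, MMP7 and MMP10 included, 5 were tested in OVCAR3 and 4 in UWB1.289, and 0 passed the test in either line with edgeR or DESeq2. Of all genes 5.23% and 2.21% passed with edgeR, so that 0 of so few genes does not set the family apart. At an unadjusted p below 0.05 there were 0 in OVCAR3 and 2 in UWB1.289, both higher. By edgeR's adjusted p alone 0 were higher in OVCAR3 and 1 in UWB1.289, against 15.5% and 7.77% of all genes. The tested metalloproteases changed by between -0.20 and 0.90 on the log2 scale in OVCAR3 and by between 0.05 and 0.37 in UWB1.289. Among 19 ADAMTS genes, ADAMTS9 rose in both lines while ADAMTS8 with -2.02 (SE 0.266, adjusted p = 1.18e-05 with edgeR) and ADAMTS15 with -1.44 (SE 0.105, adjusted p = 3.98e-09 with edgeR) fell in OVCAR3. In UWB1.289 ADAMTS15 gave -0.70 (adjusted p = 0.00143 with edgeR). The difference of effects between the lines for ADAMTS8 was 1.46 (adjusted p = 0.216 with edgeR) and did not pass. It passed with the replicate block (1.49, adjusted p = 0.0916 with edgeR) and in 3 of 16 fits with 1 library left out. TIMP1 was the 1 of 4 tested metalloprotease inhibitors that rose in OVCAR3. In UWB1.289 0 of 4 rose with edgeR or DESeq2. Of all genes 2.9% rose in OVCAR3 and 1.93% in UWB1.289 with edgeR. At an unadjusted p below 0.05 3 were higher in OVCAR3 and 2 in UWB1.289. By edgeR's adjusted p alone 3 were higher in OVCAR3, TIMP1 included, and 1 in UWB1.289, against the same 15.5% and 7.77%.

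Among the other lists, the sheddase gene ADAM8 rose in UWB1.289 by 1.24 (SE 0.145, adjusted p = 2.69e-06 with edgeR) and gave 0.09 (adjusted p = 0.862) in OVCAR3, a difference of 1.16 (adjusted p = 0.0104). The cathepsin S gene CTSS rose in UWB1.289 by 1.05 (adjusted p = 9.72e-04 with edgeR) and gave 0.90 (adjusted p = 0.00456) in OVCAR3. It fell below 2-fold in UWB1.289 without DMSO replicate 1 (0.88), DMSO replicate 2 (0.93) or olaparib replicate 3 (0.95), and passed 2-fold in OVCAR3 without DMSO replicate 2 (1.09) or olaparib replicate 3 (1.01). CTSE, cathepsin E, had 3 counts over the OVCAR3 DMSO libraries and 100 over the olaparib libraries, at least 7.73-fold higher. Without olaparib replicate 3 its mean of 9.03 normalized counts was under the limit of 10. The membrane serine protease genes TMPRSS2 with -1.72 (adjusted p = 0.00210 with edgeR) and TMPRSS3 with -1.01 (adjusted p = 5.76e-04) fell in OVCAR3. The TMPRSS3 call ended without DMSO replicate 1 (-0.98), DMSO replicate 4 (-0.97), olaparib replicate 1 (-0.96) or olaparib replicate 2 (-0.95), and DESeq2 put it just under 2-fold. Both genes were at or under the floor of 3 counts in UWB1.289, so that the difference of effects fitted for TMPRSS3, though past the threshold, has no usable size.

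Between the lines with DMSO, 37 of 58 further genes tested differed, 16 higher and 21 lower in UWB1.289, against 38.4% of all genes, 18.7% higher and 19.7% lower. Ranked by fitted log2 fold change, which for genes at the floor in 1 line depends on the prior count, the 5 highest were PRSS21 (at least 52.2-fold), ADAMTS12 (at least 79.6-fold), CST6 (log2 fold change 8.46), ADAMTS18 (at least 20.8-fold) and MMP14 (log2 fold change 5.71). By the same ranking the 5 lowest were TMPRSS3 (at least 22.2-fold lower), SERPINA5 (at least 8.70-fold), TMPRSS2 (at least 8.01-fold), MMP9 (at least 7.67-fold) and ADAMTS5 (log2 fold change -4.73). Bounds were set against 3 counts in each library of the group at the floor, and they do not fix the order. SERPINF2 (log2 fold change 5.03) and LRP1 (-3.77), which are outside these 10 and at the floor in neither line with DMSO, lay beyond some of the bounds. The means of SERPINA5, TMPRSS2 and MMP9 were close to the limit of 10 normalized counts and fell under it without OVCAR3 DMSO replicate 1 for SERPINA5 (9.55) and without OVCAR3 DMSO replicate 3 or 4 for TMPRSS2 (9.94 and 9.43) and MMP9 (9.75 and 9.10).

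The genes whose pattern was most like each of the 6 that rose were ranked by Pearson's r of log2 CPM over the 16 libraries after removing each line's mean, across 14243 genes. ADAMTS9 was nearest to TNFAIP3 (r = 0.986), SERPINE2 to PTX3 (0.975), TIMP1 to SOX9 (0.973), PLAUR to CXCL1 (0.967), PLAU to PPP1R14C (0.942) and PLAT to TGFBI (0.938). The next closest genes were KRT6A and PDZK1IP1 for ADAMTS9, ATP1B1 and CD44 for SERPINE2, SPRY4 and TRIM47 for TIMP1, AREG and PDGFB for PLAUR, ZFP36L2 and AZIN1 for PLAU, and GATA2-AS1 and TRABD2A for PLAT. No gene appeared for more than 1 of the 6. With a prior count of 0.5 in place of 2 the nearest gene stayed the same except for PLAT, where TRABD2A (0.93) came before TGFBI (0.93). GATA2-AS1, PDGFB, PDZK1IP1 and SPRY4 were then no longer among the 3 closest genes. The points share libraries and the olaparib contrast, so these correlations are descriptions without a test.

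Genes that overlap PLAU and TIMP1 had few counts of their own. C10orf55, which lies antisense to PLAU, had 4, 20, 88 and 56 counts in OVCAR3 with DMSO, OVCAR3 with olaparib, UWB1.289 with DMSO and UWB1.289 with olaparib, where PLAU had 302, 1736, 2718 and 3767. SYN1, in which TIMP1 lies, had 23 counts in all 16 libraries. The lncRNA gene ENSG00000283743, which also overlaps TIMP1, was not found in the count table. How strand was handled in counting is not given in the sources used here, so reads of these pairs cannot be told apart. How many reads of PLAU or TIMP1 the overlap cost was not determined.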

How the data were processed

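RNA of OVCAR3 and UWB1.289 cells was sequenced from 3' ends with the QuantSeq 3' mRNA kit in 16 libraries, 4 for each line and treatment. The authors used BBDuk for trimming and STAR 2.7.9a for alignment to hg38, counted reads per gene with featureCounts 2.0.0 and GENCODE release 38, and deposited raw counts for 59428 genes. Strand and multi-mapping settings are not given in the sources used here. Total counts of 5599571 to 7730228 a library make values near 10 counts imprecise.

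Counts were tested with edgeR 4.0.16 in R 4.3.3 (TMM, filterByExpr, quasi-likelihood F test, Benjamini-Hochberg over all genes tested), within each line, between the lines with DMSO and as an interaction over 16 libraries. A gene was called at an adjusted p below 0.1, a change beyond 2-fold and a mean above 10 normalized counts. DESeq2 1.42.0, its size factors, no filter, other thresholds, all libraries in 1 fit, a replicate block and leaving out each library were the alternatives. The scripts were tested on simulated data. Positions are from GENCODE release 44 and promoter windows from RefSeq (GRCh38.p14). Similarity between genes used log2 CPM with a prior count of 2.

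The 9 genes and the lists were chosen with earlier results of these data known. Named beside them were all genes of the lists called with olaparib or in the interaction, the 5 highest and 5 lowest between the lines, and the 3 most similar genes. Results for 1 gene of the lists are not reported here, and it was left out of every list count. THOC3 and MRPL39 were named after their values were seen. Same-numbered DMSO and olaparib libraries correlated, after removing group means, at 0.135, 0.156, 0.246 and 0.215 in UWB1.289 and at 0.0893, 0.186, 0.0541 and 0.144 in OVCAR3, so every pair exceeded 0.1 in UWB1.289 alone. The labels do not say what a number marks, and replicate 1 of UWB1.289 correlated more with another number (0.186). The tests were run without the block, whose value is given where it moves a result of the 9 genes and for ADAMTS8.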

Additional observations from a re-analysis of the deposited data

Results flagged for a closer look

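Of 36 sets of 4 libraries (9 genes in 4 groups), 4 held a library far from the other 3 by Dixon's test, where chance gives about 1 in 20. PLAU in OVCAR3 olaparib replicate 4 stood at 83.5 normalized counts, against 509 to 564 in the other olaparib libraries. PLAUR was low in OVCAR3 DMSO replicate 4 (72.5), where the others held 97.6 to 100.7. ADAMTS9 was low in OVCAR3 DMSO replicate 2 (9.08, others 21.4 to 22.5) and in UWB1.289 DMSO replicate 1 (41.0, others 53.0 to 53.9).

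The olaparib effect differed between the lines, UWB1.289 minus OVCAR3 in log2 fold change, by -1.98 for SERPINE2, -1.85 for PLAU, -1.31 for PLAT, -1.15 for ADAMTS9, -0.98 for TIMP1 and -0.86 for PLAUR, each with an adjusted p below 0.1 by edgeR's interaction test. In all 6 the fitted effect was positive in both lines and smaller in UWB1.289. In these differences the dose, the medium and the status of BRCA1 cannot be told apart from the line.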

How the results depend on the processing

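The count of the 9 genes called was 6 in OVCAR3, 1 in UWB1.289, 6 between the lines and 4 in the interaction. With DESeq2 it was 6, 1, 6 and 3, and with the replicate block 6, 1, 6 and 4, so that the block changed no call among them. Without a fold limit it was 7, 5, 7 and 6. Leaving out 1 library gave 5 to 6, 1 to 2, 6 to 7 and 3 to 5. The further listed genes gave 5, 2, 37 and 4 calls, and with the replicate block 5, 2, 37 and 6. With a mean above 50 normalized counts these became 2, 2, 17 and 2, and without a fold limit 22, 8, 52 and 11. Over all genes the mean above 50 gave 285, 141, 3245 and 297 calls in place of 682, 282, 5127 and 521, and no fold limit gave 4066, 1760, 10497 and 1521.

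Direction changed for values near 0 when 1 library was left out, and the cause was not tested. MMP10 in OVCAR3 ranged from -0.070 to 0.20, with -0.068 without DMSO replicate 4 and -0.070 without olaparib replicate 2, and ADAM8 there from -0.053 to 0.22, with -0.0094 without olaparib replicate 1 and -0.053 without replicate 2. TIMP1 in UWB1.289 ranged from -0.012 without DMSO replicate 1 to 0.084, with -0.0051 without olaparib replicate 3. PLAT between the lines ranged from -0.48 to 0.032 without UWB1.289 DMSO replicate 1, with 0.023 without OVCAR3 DMSO replicate 4. In the interaction, CTSS ranged from -0.045 without OVCAR3 DMSO replicate 2 to 0.38, with -0.027 without UWB1.289 DMSO replicate 1. Of the other refits of the 9 genes, 520 kept direction and side of the threshold, 20 passed it anew and 6 lost it. At this depth MMP7 in both lines and MMP10 in UWB1.289 fell under the filter on low counts and were not tested in the main fits.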
